A study of Mus musculus with 15 samples.

Results

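Each of 7 mice was reduced to 1 log2 change per gene, the side of the substantia nigra injected with virus minus the uninjected side of the same animal. The changes of 3 mice given a virus carrying miR-181 were then compared with those of 4 mice given a virus carrying green fluorescent protein (GFP). The comparison used 14 of the 15 libraries and 7 of the 8 mice of the series. The uninjected library of GFP mouse 5 has no injected partner among them and was left out. All animals were C57Bl/6J mice, and their sex and age are not given in the sources used here. In both sets an adeno-associated virus (AAV) was injected into the substantia nigra on 1 side, driven by the human synapsin promoter (hSYN1), which is active in neurons, and tissue was taken after 3 weeks. The miR-181 mice received 1.65e10 vector genomes and were sequenced with 75-base paired reads. The GFP mice received 1e10 vector genomes and were sequenced with 50-base paired reads on another model of Illumina sequencer. Vector, dose, library set, read length, sequencer, normalization and the sum of estimated counts changed together and cannot be told apart. Every difference below therefore lies between these 2 sets as a whole. The labels do not say which member of the miR-181 family the virus carried, mature miR-181 was not measured, and GFP transcripts were not analysed here.

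A microRNA guides the silencing complex to messenger RNAs by pairing its seed, a short stretch near its 5′ end, with matching sites that lie mostly in 3′ untranslated regions, and the bound messages are translated less and decay faster. The miR-181 family is expressed in brain and in lymphocytes and is known for targets in mitochondrial, apoptotic and immune signalling pathways. An AAV injection by itself can bring interferon signalling, antigen presentation, activation of microglia and astrocytes and entry of lymphocytes. The GFP mice therefore serve as the reference for the change of each gene.

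The 4 mature miR-181-5p sequences of the mouse (RefSeq, GRCm38.p6) are shown because all 4 carry the same seed, bases 2 to 8, in capitals, and matches to it were counted in all genes.
miR-181a-5p: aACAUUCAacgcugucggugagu
miR-181b-5p: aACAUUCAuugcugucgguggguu
miR-181c-5p: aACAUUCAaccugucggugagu
miR-181d-5p: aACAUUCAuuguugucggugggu
Entpd6, the gene with the lowest difference among the named genes with matches, has 3 of them in a 3′ untranslated region of 948 bases. All 3 lie in exon 14 of 14 on the plus strand, at chr2:150771199-150771205, chr2:150771477-150771484 and chr2:150771606-150771613 of GRCm38, and are shown in capitals within 30 bases of the GENCODE M21 transcript.
Entpd6 site 1: ggagcacatctTGAATGTggccatctcttc
Entpd6 site 2: ctatgtcccagTGAATGTAttcctgctatg
Entpd6 site 3: ggtcccctcagTGAATGTAcagttcataaa
Sites 2 and 3 are 8-base matches, which pair with the seed and carry an A opposite the first base of the microRNA.

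Values are abundances per library (deposited values, taken to be TPM over 1 size factor per library), and each change is a difference of log2(value + 0.5), which understates the change of low genes. Of 36265 genes with values, 14832 had a mean of at least 1 in both tables and were tested. A gene that appeared only after miR-181, such as many lymphocyte genes, could fail this filter in the GFP table. A value of at least 1 was reached by 15022 to 15563 genes per library, and depth per library is unknown. The tissue label was checked on the 28 dopamine neuron genes, none of which was at 0 in any of the 14 libraries and which summed to between 2389 and 5458. Serotonin neuron genes (9 with values) summed to between 127 and 191 in the miR-181 libraries and between 70.1 and 97.2 in the GFP libraries. GFP mouse 1 stood apart: its uninjected library held 2.9% prolactin (Prl) and 1.8% growth hormone (Gh) transcripts and its injected library 0.163% and 0.0632%. The other GFP libraries held up to 9.28 units of Prl. Both genes missed the filter, but 4 other pituitary genes were tested. In RNA from whole tissue, fewer cells of a type and less RNA per cell cannot be told apart.

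The first question was which genes changed differently with miR-181 than with GFP. At a Benjamini-Hochberg adjusted p under 0.05 (limma, two-sided, over all genes), 1 gene was called higher with miR-181 and 4 lower, which is 0.00674% and 0.027% of the genes tested and 0.0337% in all. None of the called genes belonged to any of the 40 gene lists used. At an adjusted p under 0.1 there were 33 higher and 43 lower (0.222% and 0.29%). At an unadjusted p under 0.05 there were 1044 higher and 1221 lower (7.04% and 8.23%). In 1017 genes all 3 miR-181 changes lay above all 4 GFP changes, and in 1177 all 3 lay below (6.86% and 7.94%). An exact two-sided permutation test of 3 against 4 mice cannot go below 0.0571, so single genes were tested with the model only. The number of calls depended on single mice. Without miR-181 mouse 1, 314 genes were called, 167 higher and 147 lower, with all 5 genes kept. Without miR-181 mouse 2 there was 1 call, without miR-181 mouse 3 there were 2, and without any of GFP mice 1 to 4 there was 1. The median standard deviation of a gene's change was 0.13 among miR-181 mice and 0.17 among GFP mice.

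The 3 named genes called lower were Entpd6, a Golgi enzyme that splits nucleotides, Chchd10, a mitochondrial protein of the inner membrane folds, and Lamp5, a lysosome-associated membrane protein of neurons. Entpd6 stood at 47.6, 47.9 and 49.2 on the uninjected and 27.9, 21.7 and 24.6 on the injected side of miR-181 mice 1, 2 and 3. In GFP mice 1 to 4 it stood at 46.8, 52.5, 61.5 and 47.4 on the uninjected and 50.4, 50.7, 55.0 and 49.3 on the injected side. Every injected miR-181 library was lower than every other library, and the 3 changes did not overlap with the 4. The difference of changes was -0.95 ± 0.10 log2 units (SE; 95% interval -1.18 to -0.71; limma adjusted p = 0.0487). The gene (ENSMUSG00000033068) lies on chromosome 2 from 150749042 to 150771675 of GRCm38.

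Chchd10 stood at 368, 367 and 348 on the uninjected and 249, 181 and 197 on the injected side of the miR-181 mice. In the GFP mice it stood at 456, 475, 447 and 428 on the uninjected and 486, 502, 451 and 450 on the injected side. All 3 miR-181 mice were lower on the injected side and all 4 GFP mice slightly higher, with no overlap of the changes. Chchd10 differed by -0.87 ± 0.10 (limma adjusted p = 0.0487) and has no seed match in its 3′ untranslated region of 153 bases. Lamp5 stood at 23.3, 19.0 and 64.3 on the uninjected and 13.5, 10.3 and 34.5 on the injected side of the miR-181 mice. Its changes of -0.77, -0.85 and -0.89 were close to each other although the level in mouse 3 was far above those of mice 1 and 2 on both sides. In GFP mice Lamp5 changed by between -0.12 and 0.08, so the sets did not overlap. The difference was -0.82 ± 0.09 (limma adjusted p = 0.0487), and Lamp5 has no seed match either. On GRCm38, Chchd10 (ENSMUSG00000049422) lies on chromosome 10 from 75933130 to 75937747 and Lamp5 (ENSMUSG00000027270) on chromosome 2 from 136052239 to 136069917. Entpd6 and Chchd10 passed in 7 and Lamp5 in 6 of 17 alternative settings, with adjusted p up to 0.262, 0.262 and 0.606. All 3 were lost without any 1 mouse other than miR-181 mouse 1.

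The other 2 calls were predicted genes with libraries at or near 0. Gm8430 is annotated as a processed pseudogene (ENSMUSG00000055093, chromosome 6 from 122456904 to 122457374). It stood at 0.00964, 4.11e-07 and 5.56e-07 on the uninjected and 12.2, 23.5 and 8.64 on the injected side of the miR-181 mice. In the GFP mice it stood between 75.3 and 131 on the uninjected and between 118 and 188 on the injected side, so the 2 sets differed in its level on both sides. Levels were normalized separately in the 2 sets, and reads of a processed pseudogene can be shared with its parent gene. The difference of 4.32 ± 0.30 (limma adjusted p = 0.00504) was called in all 17 alternatives, but its size depended on the pseudocount, at 6.56 with 0.1 and 3.38 with 1. Gm21830, annotated as protein coding on chromosome 2 from 67413725 to 67433086, stood at 2.82, 4.77 and 7.78 on the uninjected side of the miR-181 mice and was listed at 0 on all 3 injected sides. It was listed at 0 in the GFP libraries except both of mouse 1, at 4.72 and 5.56. It thus passed the filter in the GFP table through mouse 1 only, and in the other GFP mice a change of 0 is absence of signal. Its difference of -3.45 (limma adjusted p = 0.0487) is set by the pseudocount and is no fold.

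**Figure D1:**
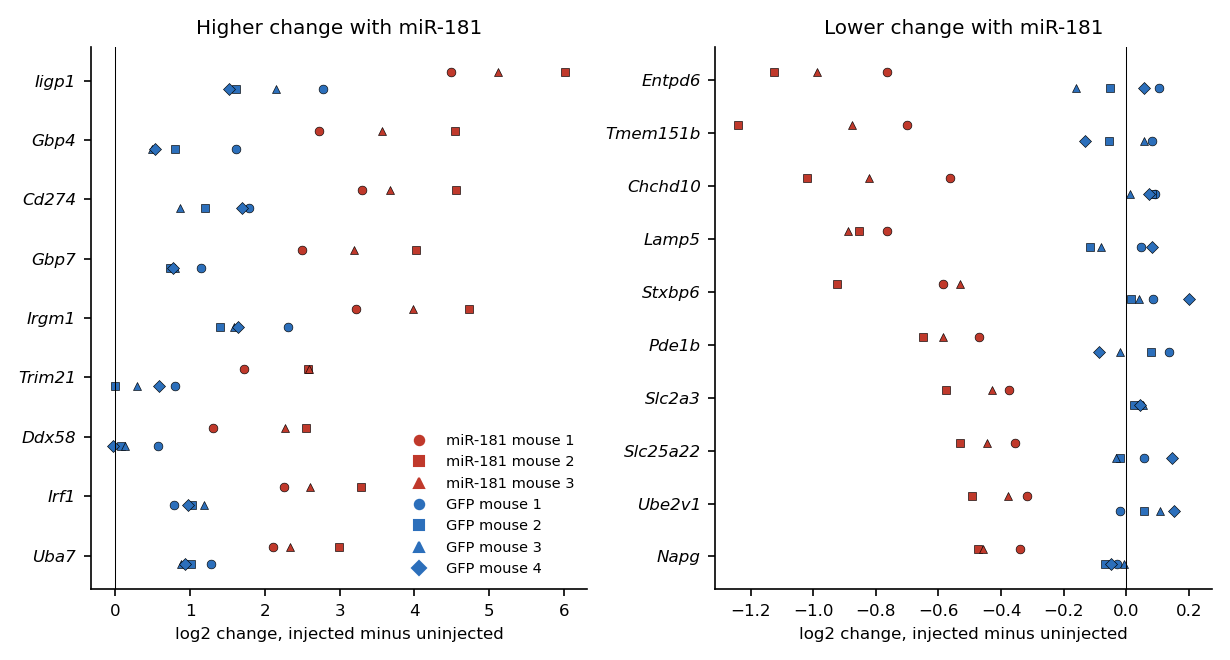
Log2 change, injected minus uninjected, of named genes in each of 3 miR-181 mice (red) and 4 GFP mice (blue), 1 marker shape per mouse; left, 9 genes with a higher change after miR-181, right, 10 with a lower one. The colours do not overlap in any row because the genes were chosen for that. On the left the GFP changes are mostly above 0 too, while on the right they sit between -0.16 and 0.20.

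Among the 10 genes of smallest p whose changes were higher with miR-181, with adjusted p between 0.0708 and 0.087, most are induced by interferon. Irf1, a transcription factor that interferon-gamma switches on, stood at 7.06, 7.60 and 7.86 on the uninjected and 35.7, 78.6 and 50.1 on the injected side of the miR-181 mice. In GFP mice 1 to 4 it stood at 10.8, 6.82, 4.85 and 7.50 on the uninjected and 18.8, 14.4, 11.7 and 15.2 on the injected side. Irf1 was thus higher on the injected side in all 7 mice, with changes of at least 2.26 after miR-181 and at most 1.19 after GFP. The change averaged 2.72 (limma adjusted p = 0.000201) and 0.99 (limma adjusted p = 0.0223), and the difference was 1.73 ± 0.23 (limma adjusted p = 0.0724). Cd274, an immune checkpoint ligand, went from 2.65, 2.76 and 3.34 to 30.4, 76.7 and 48.7 after miR-181. In the GFP mice Cd274 went from 3.07, 3.14, 2.70 and 2.52 to 11.9, 7.85, 5.30 and 9.32. Its changes were apart in the 2 sets, with a difference of 2.46 ± 0.33 (limma adjusted p = 0.0724).

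Uba7, the enzyme that activates the ubiquitin-like protein Isg15, differed by 1.46 ± 0.21, Trim21, a cytosolic antibody receptor and ubiquitin ligase, by 1.88 ± 0.28 and Ddx58, a sensor of viral RNA, by 1.86 ± 0.28. For these 3 genes the limma adjusted p was 0.087. The GFP changes of Ddx58 ran from -0.03 to 0.57 with a mean of 0.18 (limma adjusted p = 0.74 in that set), and those of Trim21 did not pass in that set either (limma adjusted p = 0.404). In the miR-181 mice Ddx58 rose by 2.04 (limma adjusted p = 0.00102). Without miR-181 mouse 1 all 5 of these genes and the GTPases Gbp4, Gbp7, Iigp1 and Irgm1 passed 0.05. With no replicate block, a fit that ignores the mouse, Cd274, Ddx58 and Irgm1 did.

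Interferon-gamma induced GTPases, which attack the membranes of vacuoles that hold microbes, formed the list with the largest median difference. Of 15 members tested 0 were called for the difference by limma at an adjusted p under 0.05. At an unadjusted p under 0.05, 15 were higher, against 7.04% of all genes. Without overlap 14 lay higher, against 6.86% of all genes. Their differences ran from 1.20 to 3.19 with a median of 2.24, beside 0.00 over all genes tested. All 15 rose in the miR-181 mice in the same fit and 9 in the GFP mice, where 5.55% and 1.1% of all genes rose. The median change by mouse was 3.09, 4.55 and 3.87 after miR-181 and 1.99, 1.55, 1.44 and 1.09 after GFP. No miR-181 mouse fell within the GFP range, and GFP mouse 1 was the highest of its set.

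Igtp, a GTPase of the Irg family, had the highest injected level among those named here. It stood at 5.56, 6.03 and 7.46 on the uninjected and 157, 441 and 261 on the injected side of the miR-181 mice. In GFP mice 1 to 4 Igtp went from 6.38, 4.01, 3.61 and 13 to 79.8, 27.6, 24.0 and 44.7. Every change after miR-181 was above every change after GFP. The difference was 2.64 ± 0.43 (limma adjusted p = 0.087). Irgm1, a regulator of that family, went from 11.9, 11.2 and 12 to 115, 310 and 196 after miR-181. After GFP it went from 9.51, 9.33, 6.25 and 10.5 to 49.2, 25.4, 19.8 and 33.8. In both genes every injected library after miR-181 was above every injected library after GFP, with tables that were normalized separately. Iigp1 differed by 3.19 ± 0.41 (limma adjusted p = 0.0708), the highest value of the list. Gbp7 differed by 2.38 ± 0.32 (limma adjusted p = 0.0724) and Gbp4 by 2.76 ± 0.43 (limma adjusted p = 0.087). Gvin1 was the 1 member that overlapped (1.20 ± 0.46; limma adjusted p = 0.275), since GFP mouse 1 changed by 1.64 and miR-181 mouse 1 by 1.17. Several of these genes have near copies in the genome, including Tgtp1 and Tgtp2, between which reads can be split.

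The promoters of 4 interferon-induced genes are shown as examples, Irf1 and the GTPases Irgm1, Gbp7 and Igtp. All 4 hold a motif, which not every gene with a higher change does. The letters are the 150 bases before the start site (RefSeq, GRCm38.p6), 5′ to 3′ on the gene's strand. Capitals mark 2 motifs searched on both strands: TTCNNNGAA, a form bound after interferon-gamma, and a pair of GAAA separated by any 2 bases, the form that interferon regulatory factors bind, which reads as a pair of TTTC on the other strand.
Irf1, chr11:53769864-53770013, plus strand: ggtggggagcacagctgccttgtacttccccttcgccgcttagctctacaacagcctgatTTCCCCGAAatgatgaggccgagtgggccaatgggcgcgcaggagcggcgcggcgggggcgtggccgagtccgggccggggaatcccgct
Irgm1, chr11:48871421-48871570, minus strand: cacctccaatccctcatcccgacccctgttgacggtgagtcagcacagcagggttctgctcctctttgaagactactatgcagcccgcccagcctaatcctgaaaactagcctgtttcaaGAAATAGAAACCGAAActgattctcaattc
Gbp7, chr3:142530186-142530335, plus strand: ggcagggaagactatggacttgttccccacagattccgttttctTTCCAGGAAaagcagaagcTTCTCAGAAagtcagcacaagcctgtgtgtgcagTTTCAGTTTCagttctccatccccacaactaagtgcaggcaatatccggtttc
Igtp, chr11:58199406-58199555, plus strand: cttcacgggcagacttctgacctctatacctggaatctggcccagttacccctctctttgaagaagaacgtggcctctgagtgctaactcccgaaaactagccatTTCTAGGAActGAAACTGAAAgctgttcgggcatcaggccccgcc
In Irgm1 the run holds 2 overlapping copies of the GAAA pair. Within 250 bases before the start site, the GAAA pair was present in 9 of the 10 GTPase genes with a promoter entry and TTCNNNGAA in 6. Of the 11140 genes tested with an entry, 3.19% and 7.15% held them. Of the 788 with an entry that lay higher without overlap, 6.73% and 8.38% held them. Of the 909 that lay lower, 2.53% and 5.83% did. Of 21 interferon response genes 8 and 6 held them. Of 17 MHC class I genes 3 and 2 held them, and of 5 MHC class II genes 0 held either. Neither motif was found for the GTPase Ifi47 or for Ddx58, Tap1, Psmb9, H2-K1 and H2-D1. A match is a description of these letters only.

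The 30 genes of the wider interferon response gave a median difference of 1.73. Of these 0 were called by limma, 29 were higher at an unadjusted p under 0.05 and 14 lay higher without overlap. Over all genes the last 2 shares were 7.04% and 6.86%. All 30 rose in the miR-181 mice, against 5.55% of all genes, and 7 in the GFP mice, against 1.1%. The medians of the 30 genes were 1.57, 3.77 and 3.24 after miR-181 and 1.80, 0.92, 0.95 and 0.94 after GFP, so miR-181 mouse 1 lay below GFP mouse 1. Isg15, the ubiquitin-like protein, shows the same order, with changes of 1.63, 4.22 and 3.89 against 2.35, 1.43, 1.51 and 0.75 (difference 1.74 ± 0.61; limma adjusted p = 0.241). Mx1, an antiviral GTPase, changed by 1.26, 3.87 and 3.75 against 3.00, 0.31, 0.59 and -0.25. In both genes GFP mouse 1 stood above miR-181 mouse 1.

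Antigen presentation split into 2 parts. MHC class I genes, which display peptides from inside the cell to killer T cells, followed the interferon genes: 0 of 20 were called by limma, 20 had an unadjusted p under 0.05, 16 lay higher without overlap and the median difference was 1.19. Over all genes 7.04% were higher at that unadjusted p and 6.86% lay higher without overlap. All 20 rose in the miR-181 mice and 11 in the GFP mice, against 5.55% and 1.1% of all genes. Tap1, a part of the peptide transporter, went from 4.55, 3.91 and 4.15 to 39.6, 99.0 and 61.0 after miR-181 and from 4.82, 3.61, 2.59 and 4.81 to 26.3, 11.1, 15.6 and 14.8 after GFP. Psmb9, a subunit of the immunoproteasome, differed by 1.73 ± 0.28 (limma adjusted p = 0.087), Tap1 by 1.80 ± 0.37 (0.109) and H2-T23, a nonclassical class I chain, by 1.89 ± 0.34 (0.0957). H2-K1, a classical chain, differed by 1.34 ± 0.32 (limma adjusted p = 0.136) and H2-D1, the other, by 0.91 ± 0.33 (0.258). H2-D1 overlapped because GFP mouse 1 changed by 2.76 and miR-181 mouse 1 by 2.65. Reads of these polymorphic chains can be shared between copies.

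MHC class II genes, which display peptides from outside the cell to helper T cells, did not share this pattern. Their median difference was 0.13, which turned to -0.27 without miR-181 mouse 2 and to -0.28 with a mean of at least 5. In this list 4 of 8 were above 0 and 0 were called by limma. Without overlap 2 were higher, against 6.86% of all genes, and 3 were higher at an unadjusted p under 0.05, against 7.04%. In this list 7 of 8 rose in the miR-181 mice and 7 in the GFP mice, against 5.55% and 1.1% of all genes. Cd74, the invariant chain, went from 16.3, 17.1 and 34.2 to 462, 853 and 551 after miR-181 and from 26.0, 6.89, 7.72 and 8.02 to 583, 394, 194 and 355 after GFP. It changed by 4.78, 5.6 and 3.99 after miR-181 and by 4.46, 5.74, 4.57 and 5.38 after GFP, so the sets overlapped, with miR-181 mouse 3 the lowest of the 7. The difference of -0.25 had a 95% interval from -1.20 to 0.71, which leaves out any excess after miR-181 of the size seen for Irf1 (1.73) but does not show that the sets were alike. H2-Aa differed by -0.60 (95% interval -1.76 to 0.56), H2-Ab1 by -0.31 (-1.27 to 0.64) and H2-Eb1 by -0.32 (-1.25 to 0.60). These 3 are chains of the class II molecule, and their limma adjusted p lay between 0.631 and 0.779. Without miR-181 mouse 3 the values of Cd74, H2-Ab1 and H2-Eb1 turned to 0.15, 0.10 and 0.03. H2-DMa and H2-DMb1, which load peptides onto class II molecules, were the 2 members that did not overlap, at 0.50 ± 0.18 and 0.67 ± 0.24 (limma adjusted p = 0.249 and 0.252). The highest difference of the list, 1.10, belonged to a member that overlapped. The difference between the class I and class II lists was not tested.

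**Figure D2:**
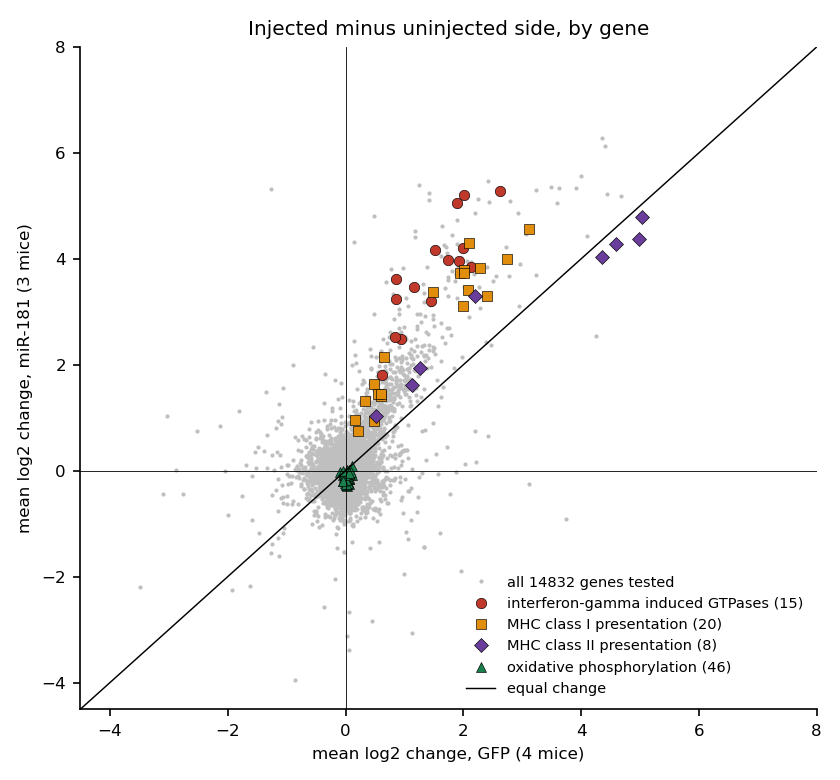
Mean log2 change of each of 14832 genes in 4 GFP mice (x axis) and in 3 miR-181 mice (y axis), with the line of equal change; 4 gene lists are coloured. The 15 GTPases and 20 MHC class I genes lie above the line, 4 of 8 MHC class II genes lie at or just under it at changes above 4, and the 46 oxidative phosphorylation genes sit near the origin.

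Genes of microglia and complement had smaller positive differences. Of 31 microglia activation genes 0 were called by limma, 21 were higher and 1 lower at an unadjusted p under 0.05, and 12 were higher without overlap (median 0.68). Over all genes 7.04% were higher and 8.23% lower at that p, and 6.86% were higher without overlap. Cst7, an inhibitor of lysosomal proteases that marks phagocytic microglia, changed by 4.54, 5.68 and 4.4 after miR-181 and by 2.53, 2.97, 2.53 and 3.72 after GFP (difference 1.94 ± 0.40; limma adjusted p = 0.112). Ctsd, a lysosomal protease, differed by 0.54 ± 0.12 (limma adjusted p = 0.121), from levels of 447 to 462 on the uninjected and 726 to 1072 on the injected side in miR-181 mice. The 17 homeostatic microglia genes had a median difference of 0.27 with 4 higher without overlap, against 6.86% of all genes. Cx3cr1, the fractalkine receptor of microglia, changed by 0.70, 0.98 and 0.79 against 0.43, 0.35, 0.53 and 0.58. Aif1, a filament-binding protein of microglia, changed by 1.28, 2.50 and 2.21 against 1.23, 1.24, 0.90 and 1.09 (difference 0.88 ± 0.26; limma adjusted p = 0.184), with the sets just apart.

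Of 16 complement genes 0 were called by limma, 11 were higher at an unadjusted p under 0.05 and 5 were higher without overlap (median 0.72). Over all genes the last 2 shares were 7.04% and 6.86%. C4b, a component that tags membranes, differed by 1.15 ± 0.27 (limma adjusted p = 0.13). Among 23 reactive astrocyte genes the median difference was 0.35, and 4 were higher without overlap, against 6.86% of all genes. Gbp2 and Psmb8, which are interferon-induced as well, were among these 4. Gfap, the filament protein of astrocytes, went from 456, 424 and 357 to 671, 1005 and 769.7 after miR-181. After GFP it went from 351, 300.4, 221 and 254 to 448, 567, 358 and 506. The changes of Gfap overlapped (difference 0.23, 95% interval -0.21 to 0.67; limma adjusted p = 0.629). Gfap rose within each set (limma adjusted p = 0.00525 and 0.0362).

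Lymphocyte genes were scarce on the uninjected sides and varied among the injected ones. The 35 T and NK cell genes summed to between 36.4 and 40.3 on the uninjected and between 129 and 444 on the injected sides after miR-181. After GFP the sums were 28.3 to 43.6 uninjected and 79.7 to 95.2 injected. The injected sides of the 2 sets did not overlap. Of the 13 members that passed the filter 0 were called by limma, 7 were higher at an unadjusted p under 0.05 and 4 without overlap (median difference 1.06). Over all genes the last 2 shares were 7.04% and 6.86%. Cd3g, a chain of the T cell receptor complex, reached 3.22, 19.3 and 6.76 on the injected sides after miR-181 and 0.70, 1.52, 1.33 and 3.00 after GFP, from at most 0.56 on any uninjected side. On the injected sides the interferon response genes summed to 1134, 3684 and 3212 in miR-181 mice 1 to 3 and to 1126, 576, 658 and 626 in GFP mice 1 to 4. The T and NK sums were 129, 444 and 226 against 92.5, 86.9, 79.7 and 95.2, so both were highest in miR-181 mouse 2, while GFP mouse 1 was high in the interferon sum only. The part of lymphocytes in the interferon results was not tested.

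The 20 B and plasma cell genes summed to between 1278 and 7486 on the injected sides of miR-181 mice and between 253 and 2552 in GFP mice, so the 2 sets overlapped. Igkc, the kappa constant region, reached 749, 4407 and 3239 on the injected sides after miR-181 and 54.7, 1352, 174 and 424 after GFP. The sets differed in Igkc on the uninjected sides too, at 47.3 to 82.3 in miR-181 mice and 4.99 to 21.7 in GFP mice. Levels were normalized separately in the 2 sets. The changes of Igkc ran from 1.32 to 7.79 within the GFP mice alone, and the difference of 0.50 had a 95% interval from -2.69 to 3.69. The joining segment Igkj4 was listed at 0 on all uninjected sides and on the injected sides of GFP mice 1 and 3, and reached 747 in GFP mouse 2. Among the 12 tested members 1 was higher without overlap, against 6.86% of all genes. This was Ighg2c (changes of 3.70, 5.70 and 6.33 against 0.73, 2.21, 0.36 and 2.40). Its uninjected levels were 1.77 to 5.27 in miR-181 mice and 0.127 to 1.02 in GFP mice. The pseudocount of 0.5 understates changes from levels as low as those in the GFP mice. Reads of antibody segments can be shared between near copies.

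**Figure D3:**
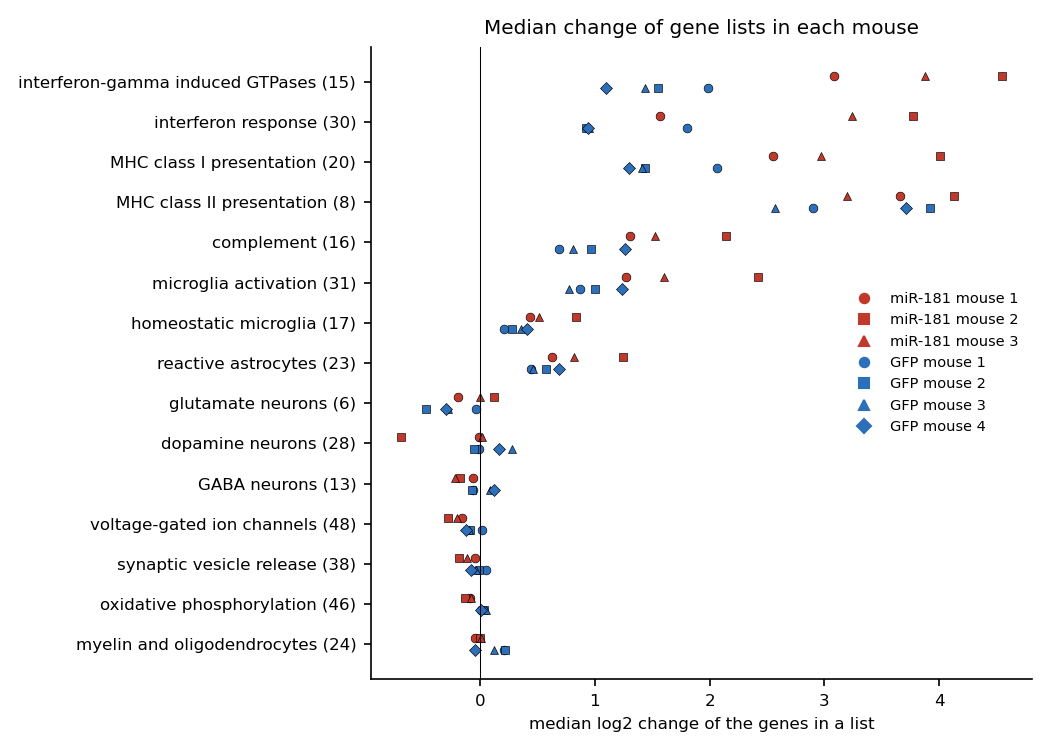
Median log2 change of the genes of 15 lists in each miR-181 mouse (red) and each GFP mouse (blue), with the number of genes tested in brackets. The sets are apart for the GTPases, MHC class I, complement, both microglia lists, oxidative phosphorylation and voltage-gated ion channels. The gaps are narrow for complement, both microglia lists and voltage-gated ion channels. In the other lists, MHC class II among them, the sets are mixed. Among the neuronal lists the values farthest from 0 are those of dopamine neuron genes in miR-181 mouse 2 (-0.69) and glutamate neuron genes in GFP mouse 2 (-0.47).

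Among the 10 genes of smallest p with a lower change, 5 have a seed match, beside 3 of the 10 genes with a higher change. Of all genes with an annotated 3′ untranslated region 23.9% have one. Tgtp2, among the 10 with a higher change, has no annotated region and could not be scored. Tmem151b, a membrane protein of the brain, went from 39.1, 40.8 and 37.9 to 23.9, 17.0 and 20.4 after miR-181 and from 43.4, 47.3, 45.9 and 51.0 to 45.9, 45.6, 47.8 and 46.5 after GFP. All 3 miR-181 changes were below every GFP change (difference -0.93 ± 0.13; limma adjusted p = 0.0724). Pde1b, a calmodulin-dependent phosphodiesterase, went from 108, 105 and 103 to 77.8, 66.7 and 68.7 after miR-181 and ranged from 88.9 to 109 in all GFP libraries. It differed by -0.60 ± 0.07 (limma adjusted p = 0.0708) and has no match. Slc2a3, the glucose transporter of neurons, differed by -0.50 ± 0.06 (limma adjusted p = 0.0708) with 2 matches. Stxbp6, which binds the SNARE proteins of vesicle fusion, differed by -0.77 ± 0.11 (0.0851) with 4 matches, and Napg, which takes SNARE complexes apart, by -0.38 ± 0.06 (0.0864) with 1. Slc25a22, the glutamate carrier of mitochondria, differed by -0.48 ± 0.07 (0.0799) and Ube2v1, a ubiquitin-conjugating enzyme variant, by -0.47 ± 0.06 (0.0724), both without a match.

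Genes of oxidative phosphorylation, the respiratory chain and ATP synthase of mitochondria, gave small but even differences. Of 46 tested 0 were called for the difference by limma. At an unadjusted p under 0.05, 21 were lower, against 8.23% of all genes. Without overlap 22 lay lower, against 7.94% of all genes. The median was -0.13, and 44 of the 46 values were below 0. The medians by mouse were -0.09, -0.13 and -0.08 after miR-181 and 0.01, 0.04, 0.05 and 0.01 after GFP. Cox5b, a subunit of cytochrome oxidase, went from 715, 728 and 667 to 615, 592 and 573 after miR-181 and from 957, 964, 885 and 837 to 981, 992, 911 and 896 after GFP. The changes did not overlap, and the difference was -0.30 ± 0.05 (limma adjusted p = 0.087). Its uninjected levels were lower in the miR-181 set than in the GFP set, whose tables were normalized separately. Atp5a1, a subunit of ATP synthase, differed by -0.25 ± 0.05 (limma adjusted p = 0.12). In the same fit 8 of the 46 genes fell in the miR-181 mice and 0 in the GFP mice, where 3.93% and 0.0472% of all genes fell.

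Voltage-gated ion channels, which set how neurons fire, had a median difference of -0.14. Of 48 genes 0 were called for the difference by limma. At an unadjusted p under 0.05, 17 were lower, against 8.23% of all genes. Without overlap 14 lay lower and 0 higher, against 7.94% and 6.86% of all genes. In the miR-181 mice 20 fell, against 3.93% of all genes, and in the GFP mice 0, against 0.0472%. Hcn2, a pacemaker channel, differed by -0.38 ± 0.07 (limma adjusted p = 0.0987). Of 38 synaptic vesicle genes 0 were called by limma, and 10 were lower and 4 higher at an unadjusted p under 0.05. Over all genes 8.23% were lower and 7.04% higher at that p. Without overlap 9 were lower, against 7.94% of all genes, and 3 higher, near the 6.86% of all genes (median -0.10). Rph3a, a Rab effector of vesicles, differed by -0.50 ± 0.09 (limma adjusted p = 0.0971) and Vamp1, a vesicle SNARE, by -0.55 ± 0.12 (0.126).

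Of 13 genes of GABA neurons and 24 of transmitter receptors 0 were called for the difference by limma. At an unadjusted p under 0.05, 4 in each list were lower and 2 receptor genes were higher. Over all genes 8.23% were lower and 7.04% higher at that p. Slc32a1, the vesicular transporter of GABA, changed by -0.20, -0.22 and -0.27 against 0.01, 0.06, 0.04 and 0.12 (difference -0.29 ± 0.05; limma adjusted p = 0.0957). Pvalb, a calcium buffer of fast-spiking neurons, differed by -0.60 ± 0.14 (0.13) and Hapln4, a link protein of perineuronal nets with 2 matches, by -0.78 ± 0.15 (0.106). All 13 GABA neuron genes had a value below 0, and 4 were lower without overlap, against 7.94% of all genes (median -0.13). Among the receptor genes 4 were lower and 1 higher without overlap, against 7.94% and 6.86% of all genes, and the median was -0.08, with a range from -0.14 to -0.02 over the settings tried.

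Dopamine neuron genes differed by a median of -0.35, with miR-181 mouse 2 far below the other mice. Of 28 genes 0 were called for the difference by limma. At an unadjusted p under 0.05, 5 were lower, against 8.23% of all genes. Without overlap 5 lay lower and 1 higher, against 7.94% and 6.86% of all genes, and 27 values were below 0. In the miR-181 mice 1 of the 28 fell, against 3.93% of all genes, and in the GFP mice 0, against 0.0472%. The medians of the 28 genes were -0.01, -0.69 and 0.01 after miR-181 and -0.01, -0.05, 0.28 and 0.17 after GFP. Without miR-181 mouse 2 the median difference was -0.14, and without miR-181 mouse 3 it was -0.44. The level of Th, which catalyses the rate-limiting step on the way to dopamine, was 348, 329.7 and 235 on the uninjected and 349, 171 and 243 on the injected sides of miR-181 mice. After GFP it went from 533, 604, 345 and 419 to 531, 603, 473 and 494. Th was 0.94 log2 units lower on the injected side in miR-181 mouse 2 and within 0.01 of 0 or higher in the other 6 mice, and the sets overlapped (difference -0.47, 95% interval -1.0 to 0.07; limma adjusted p = 0.393).

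Without miR-181 mouse 2 the difference of Th was -0.14. The dopamine transporter Slc6a3 changed by 0.02, -1.32 and 0.09 against 0.01, -0.11, 0.41 and 0.08, and the vesicular transporter Slc18a2 by -0.02, -1.62 and -0.37 against 0.03, -0.35, 0.37 and 0.15. Their differences were -0.50 ± 0.32 and -0.72 ± 0.35 (limma adjusted p = 0.504 and 0.373), and without miR-181 mouse 2, far below the others in both genes, -0.042 and -0.24. Pitx3, a transcription factor of midbrain dopamine neurons, was the member with the lowest difference, -1.21 ± 0.37 (limma adjusted p = 0.198). It changed by -0.43, -1.91 and -0.30 against 0.70, 0.07, 0.24 and 0.31, so all 3 miR-181 mice lay below the GFP mice. The other members without overlap were Gch1, which makes the cofactor of Th, Cplx1, Calb2 and Rgs6 below the GFP mice and Otx2 above them. The level of Calb2, a calcium-binding protein, was 239.9, 232 and 206 on the uninjected and 193, 190 and 191 on the injected sides of miR-181 mice.

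**Figure D4:**
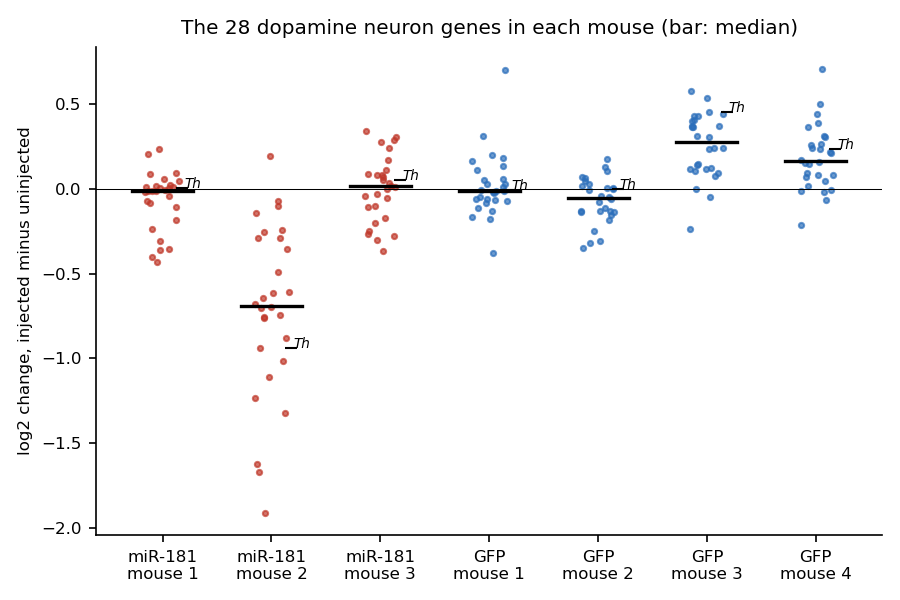
Log2 change of the 28 dopamine neuron genes (dots) in each mouse, with the median as a bar and Th marked. The medians are near 0 except -0.69 in miR-181 mouse 2, 0.28 in GFP mouse 3 and 0.17 in GFP mouse 4.

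In a few neuronal genes GFP was the set with the lower change. Slc17a7, a vesicular glutamate transporter, went from 19.6, 22.6 and 13.9 to 14.1, 27.9 and 17.5 after miR-181. In GFP mice it stood at 11.1, 19.7, 16.3 and 23.9 on the uninjected and 2.80, 6.14, 4.11 and 13.7 on the injected side. All 4 GFP mice were lower on the injected side, by 0.78 to 1.86 log2 units, and none of the miR-181 changes (-0.46, 0.30 and 0.31) reached them. Slc17a7 fell in the GFP mice (mean -1.52; limma adjusted p = 0.0119), and the difference was 1.56 ± 0.30 (limma adjusted p = 0.105). Camk2a, a kinase of excitatory synapses, changed by -0.21, 0.19 and 0.25 against -0.03, -0.39, -0.45 and -0.45 (difference 0.41 ± 0.14; limma adjusted p = 0.236), with overlap at GFP mouse 1.

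Genes with a miR-181 seed match had slightly lower changes after both viruses, and more so after miR-181. A match was counted in 3331 of the 13954 genes with an annotated 3′ untranslated region. It was either TGAATGT, the DNA letters that pair with the whole seed, or GAATGTA. The latter pairs with all but the last base of the seed and carries an A opposite the first base of the microRNA. In each mouse the median change of genes with a match minus that of genes without one was -0.03, -0.10 and -0.10 after miR-181 and -0.01, -0.07, -0.03 and -0.03 after GFP. The means were -0.08 ± 0.04 (SD, n = 3) and -0.04 ± 0.02 (SD, n = 4), and miR-181 mouse 1 lay inside the GFP range. The difference between the sets was -0.04, with a pooled SD among mice of 0.03. For the 859 genes with an 8-base match, TGAATGTA, the values were -0.06, -0.16 and -0.16 against -0.02, -0.08, -0.04 and -0.04, a difference of -0.08. Within 3 classes of 3′ untranslated region length the difference was -0.08, -0.05 and -0.05 from the shortest to the longest. The mice of the 2 sets were apart in the shortest class, and miR-181 mouse 1 lay above GFP mouse 2 in the other two. The median difference of a gene was 0.01 with no match, -0.02 with 1, -0.06 with 2, -0.06 with 3 and -0.09 with 4 or more. With 2 or more 8-base matches (88 genes) it was -0.13, and 21.6% of those genes were lower without overlap, against 7.94% of all genes.

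**Figure D5:**
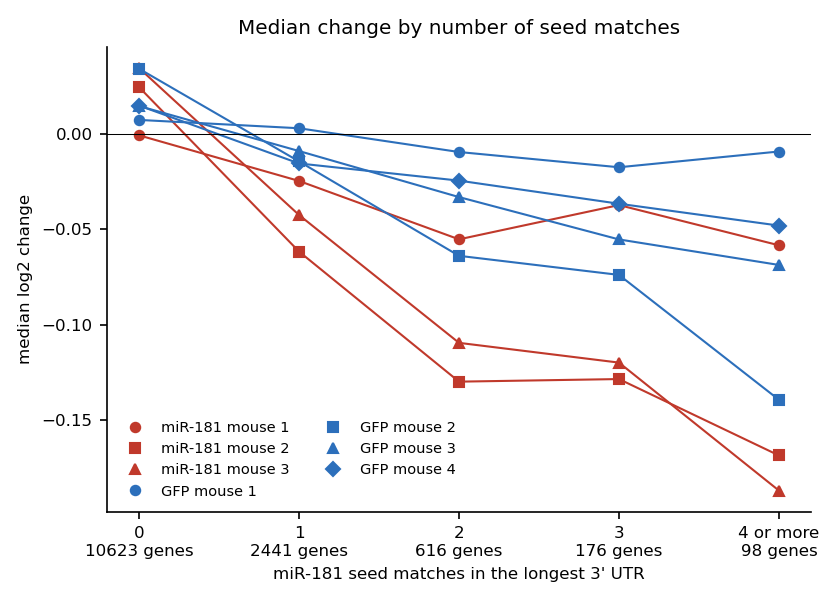
Median log2 change of genes by their number of miR-181 seed matches, for each miR-181 mouse (red) and GFP mouse (blue); the number of genes is under each group. All 7 lines are lower at 4 or more matches than at 0. miR-181 mice 2 and 3 are the lowest at 1 or more matches, and miR-181 mouse 1 runs among the GFP mice beyond 1 match.

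Of 36 tested genes that were reported as miR-181 targets and collected in a list, 5 were lower and 3 higher without overlap, against 7.94% and 6.86% of all genes, with a median difference of -0.04 (0.01 without miR-181 mouse 1) and 0 calls by limma. At an unadjusted p under 0.05, 5 were lower and 2 higher, against 8.23% and 7.04% of all genes. Cbx7, a Polycomb protein, went from 43.8, 48.7 and 43.2 to 34.1, 32.7 and 34.3 after miR-181 and from 47.4, 45.8, 44.0 and 46.7 to 52.1, 49.0, 48.0 and 47.1 after GFP. It was lower in all 3 miR-181 mice and slightly higher in all 4 GFP mice (difference -0.51 ± 0.08; limma adjusted p = 0.087). Its 2 matches, both 8-base, lie in exon 6 of 6 on the minus strand, at chr15:79916298-79916305 and chr15:79915991-79915998, and are shown because this target carries the strongest kind of match.
Cbx7 site 1: ccctgcatattTGAATGTAgaggttgggtt
Cbx7 site 2: ttcagacgaccTGAATGTAttgggaggaat
Carm1, an arginine methyltransferase with 1 match, differed by -0.51 ± 0.08 (limma adjusted p = 0.087). Smad7, an inhibitor of TGF-beta signalling, differed by -0.30 ± 0.08 (limma adjusted p = 0.144). Tgfbr1, a TGF-beta receptor with 2 matches, lay the other way at 0.56 ± 0.17 (limma adjusted p = 0.195), and Mcl1, an inhibitor of apoptosis, at 0.21 ± 0.08 (0.278).

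The last comparison took the genes that changed on average over the 7 mice. In that average 794 genes rose and 254 fell (limma adjusted p under 0.05; 5.35% and 1.71% of genes). This split of 75.8% rises became 57.5% after quantile normalization (678 against 502) and 59.8% after median centring (707 against 476). A gene can pass this average through 1 set alone, and 671 of the 794 also rose in the miR-181 mice and 161 in the GFP mice. Of the 254, 208 fell in the miR-181 mice and 6 in the GFP mice. The values below, the seed shares included, are a description of genes so chosen. The 794 genes had a median change of 0.74, 1.42 and 1.01 in the miR-181 mice and 0.45, 0.45, 0.43 and 0.57 in the GFP mice. Every miR-181 mouse lay above every GFP mouse. Their median difference was 0.51, with 284 genes higher and 9 lower without overlap, against 6.86% and 7.94% of all genes. The 254 genes that fell had medians of -0.26, -0.50 and -0.40 against -0.06, -0.11, -0.10 and -0.12. In this group 147 genes were lower without overlap and 6 higher, against 7.94% and 6.86% of all genes. Slc17a7 was among the 6. A seed match was present in 60.9% of the genes that fell and 15.9% of those that rose, against 23.9% of all genes with an annotated region. Without miR-181 mouse 2 the average response held 475 rises and 31 falls, and without miR-181 mouse 3 it held 431 and 17.

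Of 24 stress response and 22 cell cycle genes 0 were called for the difference by limma. At an unadjusted p under 0.05, 6 and 4 were higher, against 7.04% of all genes. Atf4, the transcription factor of the integrated stress response, went from 136, 133 and 131 to 153, 199 and 188 after miR-181 and stayed between 137 and 153 in all GFP libraries. It differed by 0.48 ± 0.10 (limma adjusted p = 0.109), and Ddit3, a transcription factor downstream of it, by 0.53 ± 0.15 (0.174). Chac1, an enzyme that degrades glutathione and lies downstream of Atf4, differed by 0.93 ± 0.24 (limma adjusted p = 0.145). In the stress response list 5 were higher and 0 lower without overlap, against 6.86% and 7.94% of all genes, with a median of 0.10. Cdk1, the kinase that starts mitosis, reached 2.55, 4.38 and 3.69 after miR-181 and at most 1.7 on the injected side after GFP, where uninjected levels reached 2.22. It differed by 1.90 ± 0.54 (limma adjusted p = 0.179). The cell cycle genes had a median of 0.34, which turned to -0.02 with a mean of at least 5. Of these genes 3 were higher without overlap, against 6.86% of all genes.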

How the data were processed

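Substantia nigra RNA went into stranded mRNA libraries, per the labels' protocols. The submitters' processing notes name kallisto 0.43.1, sleuth 0.30.0 and the build GRCm38. The deposited signal of each library was read as TPM divided by 1 size factor, from sums between 970505 and 1040288. The 2 sets were deposited as 2 tables and taken as normalized separately by the authors. The deposited mean log estimated counts (natural log), exponentiated and summed, came to 22.1 (miR-181) and 9.69 (GFP) in units of 1e6. Rows repeating a symbol with identical values (395 of 36660) were dropped, which left 36265 genes, 35859 of them in GENCODE M21; 0 value columns lacked a sample.

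Changes of log2(value + 0.5) were tested in 1 limma 3.58.1 fit (R 4.3.3, intensity trend, two-sided, Benjamini-Hochberg over 14832 genes), a step also tested on simulated data. From this fit came the difference, each set's mean change and the average over 7 mice. Both sides of a mouse are 1 animal per the titles; their deviations correlated at 0.142, 0.12 and 0.234 (miR-181) and 0.109, 0.119, 0.058 and 0.117 (GFP). Seed matches were counted in the longest annotated 3′ untranslated region, and promoters searched over 250 bases, with Python 3.11.15, numpy 2.4.6 and pandas 2.3.3; figures used matplotlib 3.10.9.

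The comparison, its 40 lists and the named genes were chosen with earlier results of these data known. Named were all calls, the 10 smallest p in each direction among genes without overlap (predicted symbols left out), 2 per list, the 5 largest average rises and falls, and Th, Slc6a3, Slc18a2, Gfap, Aif1, Entpd6 and Tmem151b. Of these, those described were selected after their values were seen, as were the other list members named. Mir181a-1hg and Mir181a-2 are in the rule but were not tested, not every named gene is described, and some items are not reported here. Alternatives were pseudocounts 0.1 and 1, means of at least 5 or above 0, other scalings, limma without trend or robust, no mouse pairing, and each mouse left out.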

Additional observations from a re-analysis of the deposited data

Results flagged for a closer look

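The tested difference between the sets passed for 5 genes: Gm8430 at 4.32, Entpd6 at -0.95, Chchd10 at -0.87, Lamp5 at -0.82 and Gm21830 at -3.45 log2 units. Their levels in each library are given above.

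Some changes of 1 GFP mouse lay far from the other 3 (Dixon's test, which chance passes in about 1 of 20 groups). The number of groups examined is not stated here, so flags that arose by chance cannot be told apart from others. GFP mouse 1 was the mouse apart in the interferon response list, with a median change of 1.80 against 0.92 to 0.95 in the others, and in the pituitary list, with -1.77. The pituitary genes of that mouse summed to 50547 on the uninjected and 2806 on the injected side, where the other GFP libraries held between 333 and 398. Tshb, the beta chain of thyrotropin, went from 44.7 to 5.95 in GFP mouse 1, a change of -2.81. The same mouse stood apart for Gm21830 (0.22), where the other 3 were listed at 0, for Atp5a1 (-0.0442) and for Camk2a (-0.0273). GFP mouse 4 stood apart for Vamp1 (-0.17) and Cox5b (0.10).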

How the results depend on the processing

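The count of 5 calls became 1 with no low-value filter, with pseudocount 1 and after quantile normalization, 3 without the intensity trend and 45 with no replicate block (libraries unpaired, GFP mouse 5 included). Leaving out 1 mouse gave from 1 to 314 calls. Genes called higher numbered 1 except for 2 without the trend, 9 with no replicate block and from 1 to 167 with a mouse left out. Genes called lower, 4 in all, became 0 without the filter, with pseudocount 1 and after quantile normalization, 1 without the trend, 36 with no replicate block and from 0 to 147 with a mouse left out. With no replicate block 3 of the 5 calls were kept, Entpd6, Chchd10 and Gm8430. Gm8430 was called in each alternative, with limma adjusted p from 0.000144 to 0.0423. The seed-match difference of -0.0422 became -0.0833 with 8-base matches and ran from -0.0657 to -0.0292 with a mouse left out. The medians of the average response stayed between 0.31 and 0.63 for rises and between -0.36 and -0.24 for falls. With a mouse left out, differences that turned their sign ran from -0.65 to 0.15 for Cd74, from -0.77 to 0.10 for H2-Ab1, from -0.73 to 0.0258 for H2-Eb1 (each turned without miR-181 mouse 3), from -0.62 to 1.54 for Igkc (without GFP mouse 1, and at -0.05 without miR-181 mouse 2) and from -0.0178 to 0.89 for Tshb (without GFP mouse 1). The MHC class II median was -0.27 without miR-181 mouse 2 and -0.28 with a mean of at least 5. The cell cycle median was -0.02 with a mean of at least 5. The cause was not tested in any of these. Depth per library is unknown and limits low genes.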
